A study of Mus musculus with 2 samples.

Results

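Esrrb, Tfcp2l1 and Nr5a2, nuclear factors of the naive pluripotency network, were followed together with 5 partner genes, Nr0b1, Tbx3, Prdm14, Zfp42 and Pecam1, while mouse epiblast stem cells (mEpiSCs), a primed state, were returned to a naive-like one. The 8 genes were taken by symbol from the 33963 genes of a single-cell RNA-seq count table, and all 8 were present. The table held 17720 cells and 307121033 reads from 1 pooled cDNA library in which 5 populations carried different oligonucleotide tags. Naive mouse embryonic stem cells (mESCs) were Rex1-GFP cells, in which the promoter of Rex1 (gene name, Zfp42) drives GFPd2, kept in 2i and LIF (2iL). Primed mEpiSCs were Oct4GIP cells, whose Oct4 promoter drives eGFP and puromycin resistance, kept in FGF2 and Activin A on fibronectin. After 1 day on mouse embryonic fibroblast (MEF) feeders, Oct4GIP cells received the AMPK activator AICAR together with LIF and were collected at d8 or d16, and d16 cells were expanded in 2iL for 10 passages (d16+10p). The label gives 129/Ola as the strain of the whole library. Naive cells therefore came from a different line than the other 4 populations, and line and state cannot be told apart in comparisons with naive cells. Each population was 1 sample, so no replicate error and no test was available, and all intervals are 95% intervals of counting error only.

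Naive pluripotency, the state of the preimplantation epiblast, is held by a network in which LIF, through Stat3, and Wnt signalling, through relief of Tcf7l1 repression, act on a small set of transcription factors. Esrrb and Nr5a2 are orphan nuclear receptors that bind a shared half-site. Tfcp2l1, a grainyhead family factor, is a target of LIF and Stat3. Nr0b1 (Dax1) is an atypical receptor without a classical DNA-binding domain, Tbx3 is a T-box factor, Prdm14 represses FGF receptor signalling and de novo DNA methylation genes, Zfp42 (Rex1) is the classical marker lost on leaving the naive state, and Pecam1 (CD31) is a surface adhesion protein of naive and of endothelial cells that the study used as a surface marker. Primed cells keep Pou5f1 (Oct4) but lose most of these genes.

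The 8 genes lie on 6 chromosomes (GRCm38): Tfcp2l1, Nr5a2 and Prdm14 on chromosome 1, Tbx3 on 5, Zfp42 on 8, Pecam1 on 11, Esrrb on 12 and Nr0b1 on X. The RefSeq promoter table (GRCm38.p6) held 5 of the 8 genes, with 2 start sites each for Esrrb and Nr5a2. The 250 bases before a start site are shown for the 3 factors and for Zfp42, whose promoter is also the driver of the reporter in the naive line. They were searched on both strands for the octamer ATGCAAAT bound by Oct4, for the half-site AAGGTCA shared by Esrrb and Nr5a2, for its extended form TCAAGGTCA, which contains AAGGTCA, and for the Stat motif TTCNNNGAA. Of all 32851 promoters of the table, 1.60% held the octamer, 4.08% the half-site, 0.387% the extended half-site and 7.02% the Stat motif. Capitals mark the matches. Esrrb is shown at chr12:86360867-86361116 (plus strand), Tfcp2l1 at chr1:118627695-118627944 (plus), Nr5a2 at chr1:136960449-136960698 (minus) and Zfp42 at chr8:43307010-43307259 (minus).
Esrrb: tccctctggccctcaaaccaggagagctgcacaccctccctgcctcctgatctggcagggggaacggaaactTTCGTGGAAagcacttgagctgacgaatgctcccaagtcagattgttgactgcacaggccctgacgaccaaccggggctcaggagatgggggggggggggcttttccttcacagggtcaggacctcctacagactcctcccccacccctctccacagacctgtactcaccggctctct
Tfcp2l1: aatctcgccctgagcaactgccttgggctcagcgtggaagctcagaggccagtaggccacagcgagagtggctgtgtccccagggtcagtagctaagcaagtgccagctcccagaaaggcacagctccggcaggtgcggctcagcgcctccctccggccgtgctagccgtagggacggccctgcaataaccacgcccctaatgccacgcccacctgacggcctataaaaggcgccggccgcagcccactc
Nr5a2: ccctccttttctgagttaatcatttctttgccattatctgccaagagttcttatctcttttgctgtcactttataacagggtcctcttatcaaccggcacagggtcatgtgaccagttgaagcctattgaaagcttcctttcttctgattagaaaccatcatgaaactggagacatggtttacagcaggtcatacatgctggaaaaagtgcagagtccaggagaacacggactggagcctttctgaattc
Zfp42: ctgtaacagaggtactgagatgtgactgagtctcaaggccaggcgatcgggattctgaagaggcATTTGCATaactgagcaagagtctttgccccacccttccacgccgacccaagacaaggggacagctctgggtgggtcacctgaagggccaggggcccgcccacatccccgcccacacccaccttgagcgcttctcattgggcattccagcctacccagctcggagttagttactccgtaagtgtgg
The Esrrb promoter held 1 Stat match, TTCGTGGAA, and the Zfp42 promoter held 1 octamer match on the opposite strand, ATTTGCAT. The windows of Tfcp2l1 and Nr5a2, and those of the other Esrrb and Nr5a2 start sites and of Nr0b1, held none of the 4 motifs. A match is a description of these letters only.

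To separate naive-like cells from other cells of a tag, the level of Dppa5a, a naive pluripotency gene outside the 8, was used with a limit of 1000 counts per 1000000 reads of the cell (counts per 1000000 are written CPM). By tag, at or above it lay 570 of 801 naive cells (71.2%), 1278 of 4315 d16 cells (29.6%) and 926 of 1151 d16+10p cells (80.5%). So did 62 of 1826 primed-tagged cells (3.40%) and 72 of 9627 d8-tagged cells (0.748%). Primed-tagged cells were mixed: 415 fell in the cluster with high Pou5f1 in which that tag was most enriched, and these cells served as the primed core. The 1355 primed-tagged cells outside the core and below the limit had Pou5f1 at 82.7 CPM. The study took the Oct4-negative cells of its primed sample to be MEF feeders, so values over all primed-tagged cells are not of primed cells alone. The core carried Pou5f1 at 411 CPM, against 361 CPM in naive, 345 CPM in d16 and 368 CPM in d16+10p naive-like cells. Markers fixed for primed cells (Fgf5, Fgf8, Otx2, Pou3f1, Dnmt3b and T) summed to 496 CPM in the core. In naive, d16 and d16+10p naive-like cells they summed to 84.0, 108 and 127 CPM. The sums thus followed the labels, but Otx2 was at 17.7 CPM in the core and 18.3 CPM in d16 naive-like cells. The core was picked from clusters of expression, so this match is in part built in. Levels are reads of a gene summed over the cells of a group, divided by all reads of the group, and are compared between groups, not between genes. Values at d8 are over all d8 cells unless cells below the limit are named, and 6 of the 415 core cells lay at or above it.

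Esrrb was at 147 CPM (141 to 154) in naive cells, 6.95 CPM (5.39 to 8.81) in the primed core, 7.78 CPM (7.38 to 8.20) at d8, 117 CPM (112 to 122) in d16 naive-like cells and 134 CPM (129 to 138) at d16+10p. The order was thus naive, d16+10p, d16, with none of the 3 intervals overlapping, and then a wide step to d8 and the primed core, whose intervals overlap. Tfcp2l1 was at 107 CPM (102 to 113) in naive cells, 6.54 CPM (5.04 to 8.35) in the primed core, 7.04 CPM (6.65 to 7.43) at d8, 94.9 CPM (90.8 to 99.2) in d16 naive-like cells and 115 CPM (111 to 120) at d16+10p. Here d16+10p was at the top, its interval overlapping with that of naive cells. Nr5a2 was at 52.4 CPM (48.7 to 56.3), 3.78 CPM (2.66 to 5.21), 3.37 CPM (3.11 to 3.65), 48.9 CPM (45.9 to 52.0) and 61.3 CPM (58.1 to 64.5) in the same order of groups. For Nr5a2, naive and d16 naive-like cells overlapped and d16+10p lay above them.

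Nr0b1 was at 44.1 CPM (40.7 to 47.7) in naive cells, 1.23 CPM (0.633 to 2.14) in the primed core, 2.03 CPM (1.83 to 2.25) at d8, 32.5 CPM (30.1 to 35.0) in d16 naive-like cells and 63.8 CPM (60.6 to 67.1) at d16+10p. Its 3 naive-like levels were all distinct, and d16+10p was 1.93-fold above d16. Tbx3 was at 71.6 CPM (67.3 to 76.2) in naive cells, 5.31 CPM (3.97 to 6.97) in the primed core, 8.50 CPM (8.08 to 8.93) at d8, 63.4 CPM (59.97 to 66.9) in d16 naive-like cells and 66.8 CPM (63.5 to 70.2) at d16+10p. Only the naive and d16 intervals of these 3 did not overlap, by a narrow margin. Prdm14 had the fewest reads, and its 19.1 CPM (16.9 to 21.5) in naive cells, 17.1 CPM (15.4 to 19.0) in d16 naive-like cells and 20.9 CPM (19.1 to 22.9) at d16+10p stood against 0.919 CPM (0.420 to 1.75) in the primed core and 1.16 CPM (1.01 to 1.33) at d8. The naive level of Prdm14 overlapped with both others, and d16 and d16+10p were narrowly apart.

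Zfp42 was at 668 CPM (654 to 681) in naive cells, 28.2 CPM (24.97 to 31.7) in the primed core, 24.1 CPM (23.4 to 24.8) at d8, 488 CPM (479 to 498) in d16 naive-like cells and 441 CPM (432 to 449) at d16+10p. Its level in the reverted cells was below that of naive cells at d16 and after expansion, with no overlap between the 3 intervals. Pecam1 was instead highest at d16 among naive-like cells, 71.7 CPM (68.1 to 75.4) at d16 against 44.7 CPM (41.3 to 48.3) in naive cells and 38.5 CPM (36.0 to 41.1) at d16+10p. In the primed core Pecam1 was at 3.88 CPM (2.75 to 5.33) and at d8 at 6.78 CPM (6.41 to 7.17). The endothelial markers Cdh5, Kdr, Tek, Tie1, Emcn, Esam, Cldn5 and Plvap summed to 12.6 CPM in d16 naive-like cells, 10.9 CPM in naive cells, 9.93 CPM at d16+10p, 9.40 CPM in the primed core (1 of the 8 at 0) and 36.9 CPM in d16 cells below the limit. The 8 macrophage markers, led by Lyz2, summed to 742 CPM in naive, 442 CPM in d16+10p and 274 CPM in d16 naive-like cells and to 2995 CPM at d8, and their part in the order of the levels was not tested.

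**Figure D1:**
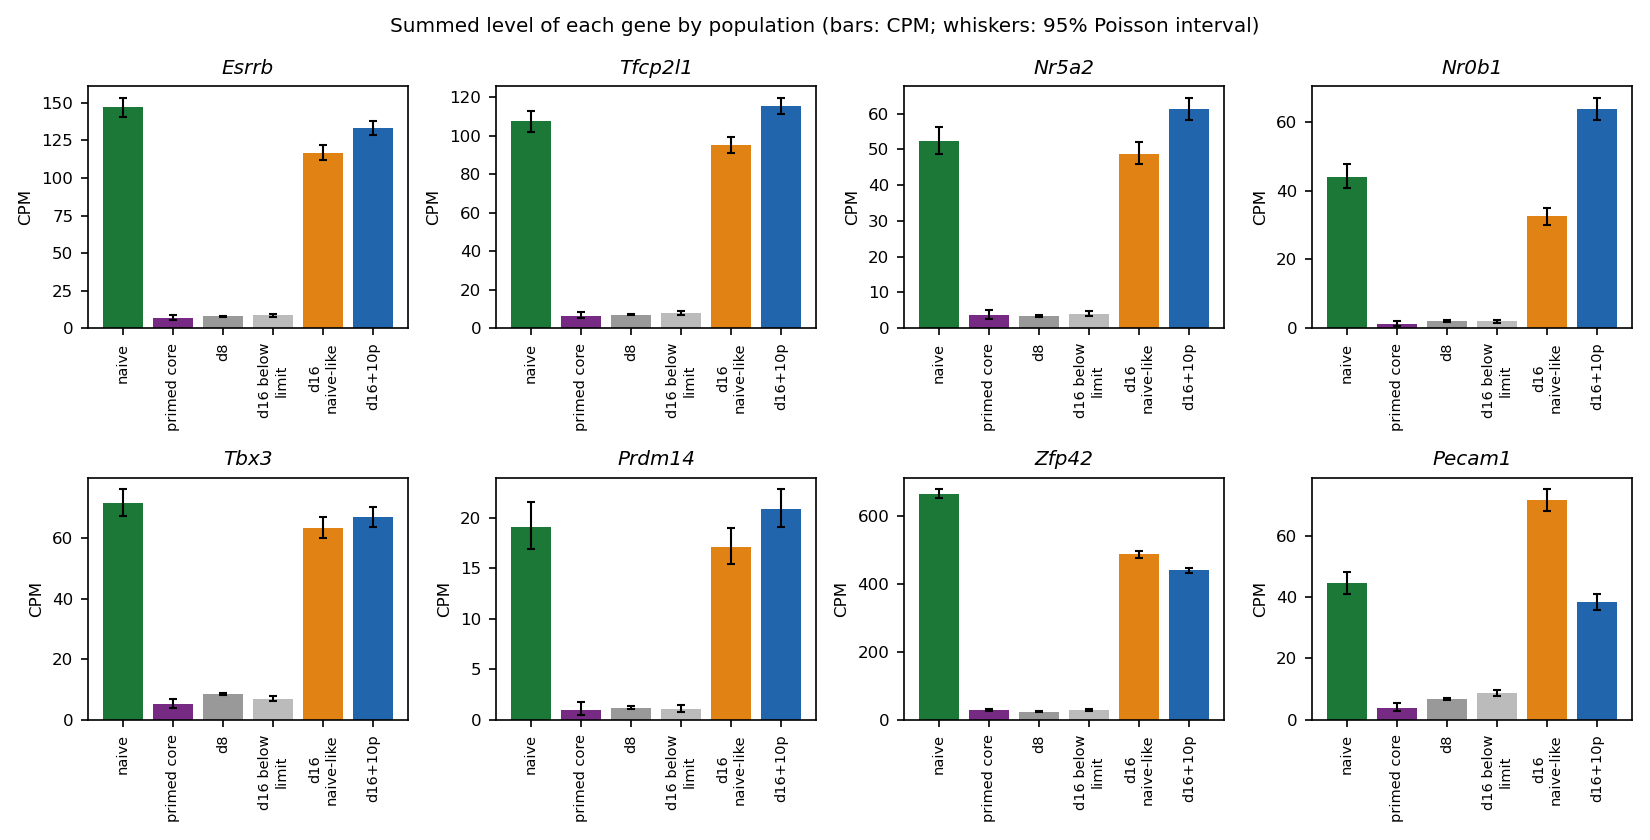
Summed level of each gene in CPM (vertical axis, linear, starting at 0) in naive cells, the primed core, d8 cells, d16 cells below the Dppa5a limit, d16 naive-like cells and d16+10p cells, where naive and d16+10p stand for cells at or above the limit, with 95% Poisson intervals as whiskers. In each panel the primed core, d8 and other d16 cells lie far below the 3 naive-like groups, and Pecam1 alone is highest at d16 (71.7 CPM).

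The first question was how the cells that return at d16 differ from the cells of origin. All 8 genes were at least 2-fold higher in d16 naive-like cells than in the primed core. Among the 3954 genes that reached 50 CPM in one of the groups, 7.41% were at least 2-fold higher. Of the 8 genes 5 reached this level, all through d16 naive-like cells (Nr5a2, Nr0b1 and Prdm14 did not). Without a minimum the share was 6.52% of 30828 genes. Naive-like cells were chosen by Dppa5a, whose level over clusters ran with that of several of these genes. The 8 genes were also chosen with earlier results of these data known. The count of 8, here and for the primed core against naive cells, is therefore a description only. On the log2(CPM + 1) scale the ratios ran from 3.24 (Prdm14) to 4.07 (Zfp42, 16.8-fold), with a median of 3.78, while the median of all genes was -0.002. Esrrb differed by 3.89 (3.73 to 4.44), Tfcp2l1 by 3.67 (3.50 to 4.24) and Nr5a2 by 3.38 (3.22 to 4.21). The intervals were computed without the added CPM, which pulls ratios of low genes toward 0, so the values of Nr0b1 (3.91, interval 3.91 to 5.69) and Prdm14 (3.24, interval 3.28 to 5.36) lie at or below the lower ends. The primed core against naive cells gave the mirror image. All 8 genes were at least 2-fold lower, from -3.23 (Pecam1) to -4.52 (Zfp42) with a median of -3.69, where 5.97% of 3786 genes were at least 2-fold lower and 4.49% at least 2-fold higher. These comparisons share the primed core, and the next ones share naive cells or d16 cells. Over cells below the Dppa5a limit, core levels of all genes but Pecam1 lay within the range of clusters without high Pou5f1. Pecam1 lay below that range. Ratios with the core thus rest on low core levels like those of such clusters, and their order is not a ranking of the genes.

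Against naive cells, none of the 8 genes was past 2-fold at d16 in either direction, while 2.3% of 3821 genes were at least 2-fold higher and 1.07% at least 2-fold lower. Within this range 5 genes were lower with intervals below 0: Zfp42 by -0.45 (-0.49 to -0.41), Nr0b1 by -0.43 (-0.60 to -0.28), Esrrb by -0.33 (-0.42 to -0.25), Tfcp2l1 by -0.18 (-0.28 to -0.08) and Tbx3 by -0.17 (-0.30 to -0.06). Nr5a2 (-0.10, -0.24 to 0.04) and Prdm14 (-0.15, -0.39 to 0.08) had intervals that include 0, and Pecam1 was the only gene above naive cells, by 0.67 (0.55 to 0.82). Scaling by TMM shifted every d16 to naive ratio by -0.15. Pecam1 then stood at 0.52, and Nr5a2 and Prdm14 at -0.25 and -0.29.

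After 10 passages in 2iL, again none of the 8 genes was past 2-fold from naive cells, where 0.836% of 3587 genes were at least 2-fold higher and 0.53% at least 2-fold lower. The median ratio of the 8 genes was 0.00. Zfp42 remained lower, by -0.60 (-0.64 to -0.56), and Esrrb and Pecam1 were lower by -0.14 (-0.22 to -0.06) and -0.21 (-0.36 to -0.07). Nr0b1 was higher by 0.52 (0.40 to 0.67), Nr5a2 by 0.22 (0.10 to 0.35) and Tfcp2l1 by 0.10 (0.01 to 0.19). Tbx3 (-0.10) and Prdm14 (0.12) had intervals that include 0.

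**Figure D2:**
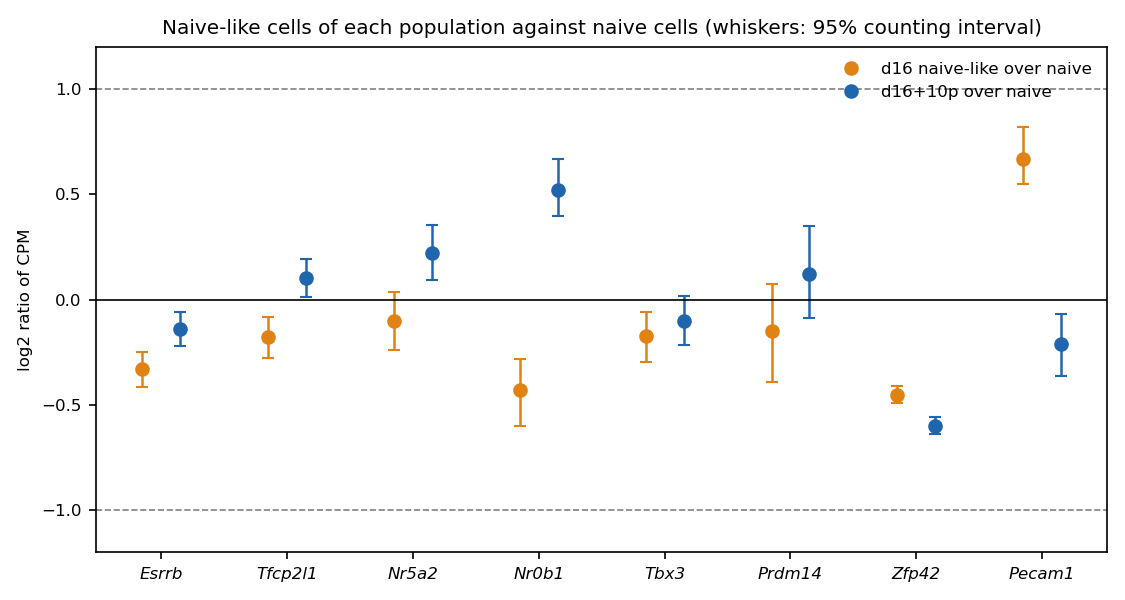
Log2 ratio of CPM (vertical axis) of each gene in d16 naive-like cells (orange) and in d16+10p cells (blue) over naive cells, with 95% counting intervals as whiskers and dashed lines at 2-fold. No point passes 2-fold, Pecam1 at d16 (0.67) and Nr0b1 at d16+10p (0.52) lie highest, and Zfp42 lies below 0 in both.

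Expansion from d16 to d16+10p moved 2 genes most. Nr0b1 was higher by 0.95 (0.84 to 1.11) and Pecam1 lower by -0.88 (-1.02 to -0.78). Neither passed 2-fold, which 0.609% of 3775 genes did upward and 0.98% downward. With TMM scaling, which shifted these ratios by 0.13, Nr0b1 reached 1.08 and passed it. Smaller differences were seen for Nr5a2 at 0.32 (0.21 to 0.44), Tfcp2l1 at 0.28 (0.20 to 0.37), Prdm14 at 0.27 (0.09 to 0.49), Esrrb at 0.19 (0.11 to 0.27) and Zfp42 at -0.15 (-0.19 to -0.11), and Tbx3 at 0.08 had an interval that includes 0. For Zfp42 the TMM value was -0.02.

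Because the naive line differs from the other cells, the median ratio of each gene's own chromosome was set beside these values. At d16 against naive cells the 224 genes of chromosome 8, which carries Zfp42, had a median of -0.21 and the 316 genes of chromosome 11, which carries Pecam1, a median of -0.19, against 0.05 over the autosomes. At d16+10p the medians were -0.19 and -0.15. Both chromosomes were also lower in the primed core against naive cells, at -0.15 and -0.22. The X chromosome, which carries Nr0b1, had medians of 0.13 and 0.08 at d16 and d16+10p. Pecam1 was above naive cells at d16, while the median of its chromosome was lower. At d16+10p both were lower, and the chromosome median lay within the interval of Pecam1. Zfp42 was further below naive cells than its chromosome at d16 and at d16+10p. The part of the chromosome shifts in the gene values was not tested.

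Summed over bins of Dppa5a, d16 cells near the limit had levels between those of the lowest and highest bins, and whether single cells there were intermediate or a mix of high and low cells was not tested. Esrrb was at 7.51 CPM in the 2926 d16 cells below 500 CPM of Dppa5a, 31.3 CPM (22.6 to 42.1) in the 111 cells just outside the limit (500 to below 1000), 77.3 CPM (67.6 to 87.9) in the 184 cells just inside it (1000 to below 2000), 118 CPM in 556 cells between 2000 and 4000 and 130 CPM in 538 cells at 4000 and above. Just outside and just inside the limit, Tfcp2l1 was at 28.4 and 59.8 CPM, Nr5a2 at 26.2 and 29.9 CPM, Nr0b1 at 7.27 and 17.8 CPM, Tbx3 at 32.7 and 39.6 CPM, Prdm14 at 7.27 and 11.8 CPM, Zfp42 at 143 and 324 CPM and Pecam1 at 37.1 and 51.1 CPM. The intervals across the limit overlapped for Nr5a2, Nr0b1, Tbx3, Prdm14 and Pecam1, and did not for Esrrb, Tfcp2l1 and Zfp42. At the top of the range, Pecam1 was level (75.2 and 75.03 CPM in the upper 2 bins) and Prdm14 was at 20.02 and 15.9 CPM with overlapping intervals, whereas Zfp42 and Tbx3 went from 477 to 557 CPM and from 59.5 to 75.7 CPM.

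**Figure D3:**
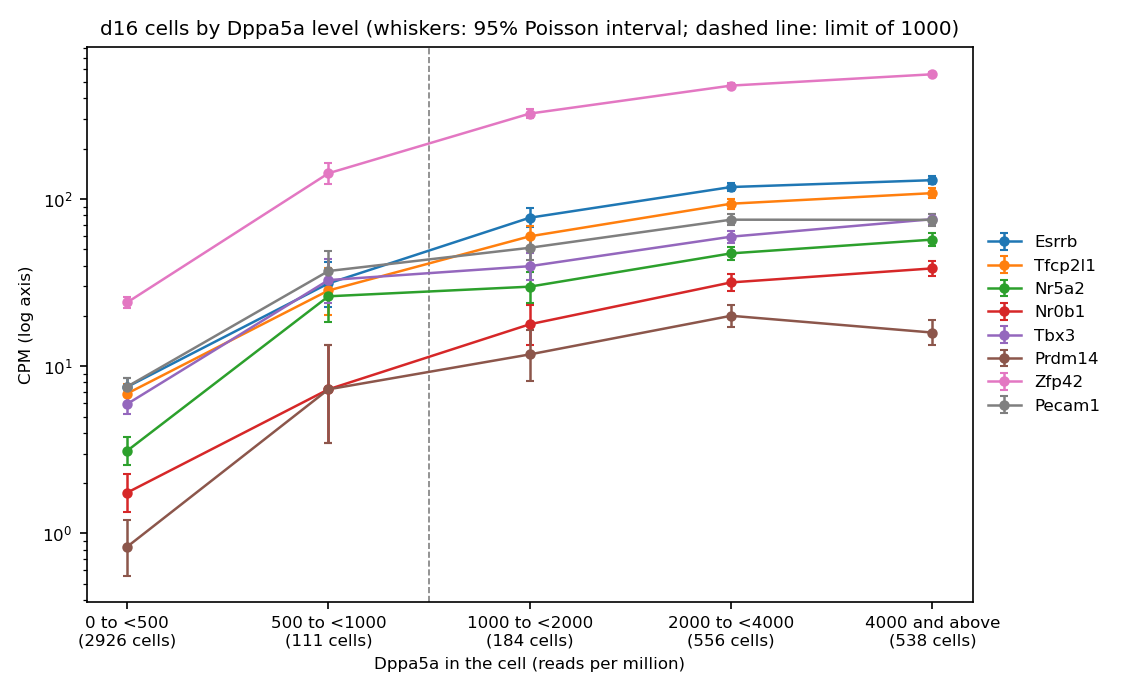
Level of each gene in CPM (vertical axis, log scale) in d16 cells grouped by their Dppa5a level in CPM (horizontal axis, with the number of cells), with 95% Poisson intervals as whiskers and the limit of 1000 as a dashed line. All 8 genes are lowest in the first bin, and Pecam1 and Prdm14 level off between the upper 2 bins.

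Dppa5a itself was higher at d16 (3726 CPM) than in naive (2801 CPM) and d16+10p (3051 CPM) naive-like cells, so cells of a like Dppa5a level were also compared. Between 2000 and 4000 CPM of Dppa5a, Pecam1 was at 75.2 CPM (69.7 to 81.0) at d16, 44.2 CPM (40.2 to 48.5) in naive cells and 39.98 CPM (36.8 to 43.3) at d16+10p. Between 1000 and 2000 it was at 51.1 CPM (43.3 to 59.9) at d16 and 52.1 CPM (43.6 to 61.8) in naive cells, which overlap. In the 2000 to 4000 bin Zfp42 was at 477 CPM at d16, 450 CPM at d16+10p and 691 CPM in naive cells, and Nr0b1 at 31.7, 68.3 and 43.2 CPM, the same orders as in the whole groups. At 4000 CPM and above, Nr0b1 was at 68.0 CPM (55.9 to 82.0) in naive cells and 64.1 CPM (56.6 to 72.4) at d16+10p, which overlap.

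Below the Dppa5a limit, reads of the 8 genes were few in d8, d16 and primed cells and more frequent in naive-tagged and d16+10p-tagged cells. As a percentage of the d16 naive-like level, the 8 genes lay between 4.51% and 13.2% in d8 cells below the limit (median 6.40%; 6.84% over all d8 cells), between 5.88% and 12.1% in d16 cells below the limit (median 7.67%) and between 3.77% and 8.39% in the primed core (median 5.86%). Dppa5a lay at 1.94%, 2.70% and 2.61%. The split used Dppa5a, so its low percentages are in part built in and are no measure for the 8 genes. All primed-tagged cells below the limit, the core included, lay between 4.91% and 8.86% (median 6.96%). The medians were 14.9% in the 231 naive-tagged and 27.7% in the 225 d16+10p-tagged cells below the limit. Macrophage-like cells (all 8 macrophage markers at least 2-fold above other cells), a cluster without high Pou5f1, served for comparison. Whether they lack each of the 8 genes was not tested. Of their 938 cells, 34 lay at or above the Dppa5a limit, and the 904 below it had Esrrb at 5.43 CPM (4.39 to 6.64), Nr0b1 at 2.11 CPM (1.49 to 2.91) and Zfp42 at 23.7 CPM (21.5 to 26.1), with the 8 genes at 4.64% to 9.92% of the d16 naive-like level. In the 409 core cells below the limit Esrrb was at 5.61 CPM (4.21 to 7.31), Nr0b1 at 1.14 CPM (0.570 to 2.04) and Zfp42 at 24.9 CPM (21.9 to 28.3). Over cells below the limit, the primed core lay within the range of the 11 clusters of at least 100 cells without high Pou5f1 for 7 of the 8 genes, for Zfp42 with 1 cluster above it, and Pecam1 (3.63 CPM) lay below the lowest of them (4.97 CPM).

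Exceptions among the clusters without high Pou5f1 were few. Tbx3 was at 17.4 CPM, 27.5% of its d16 naive-like level, in a cluster of 2342 cells led by Lox, Olr1 and Ccl2, of which 2170 were d8 cells, while the next highest cluster had 7.36 CPM. In the d8 cells of that cluster Tbx3 was at 17.2 CPM (16.0 to 18.4), with a read in 435 of 2170 cells. In the 2150 of these d8 cells below the Dppa5a limit it was at 17.0 CPM (15.8 to 18.2). Tfcp2l1 (17.7 CPM) and Pecam1 (15.7 CPM) were highest in a cluster of 171 mainly d8 cells led by Krt15 and Tbx4, which stayed unnamed, and rested there on 47 and 44 reads of d8 cells. These genes were chosen as the highest after their values were seen.

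A cluster of 56 cells, 50 of them d16 cells, had 5 of 6 markers of 2-cell-like cells, a rare state of naive cultures marked by Zscan4 genes, at least 2-fold above other cells. It had Pou5f1 at 184 CPM and the 8 genes at 41.8% (Esrrb) to 197% (Prdm14) of their d16 naive-like level. Esrrb was at 48.9 CPM (34.7 to 66.8), Tfcp2l1 at 51.4 CPM (36.9 to 69.7) and Nr0b1 at 20.04 CPM (11.5 to 32.6). Prdm14 was at 33.8 CPM (22.3 to 49.2) from 27 reads, and Nr5a2 (47.6 CPM) and Tbx3 (66.4 CPM) were close to the d16 naive-like level. Of these 56 cells, 35 d16 cells lay at or above the Dppa5a limit and are part of the d16 naive-like group.

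**Figure D4:**
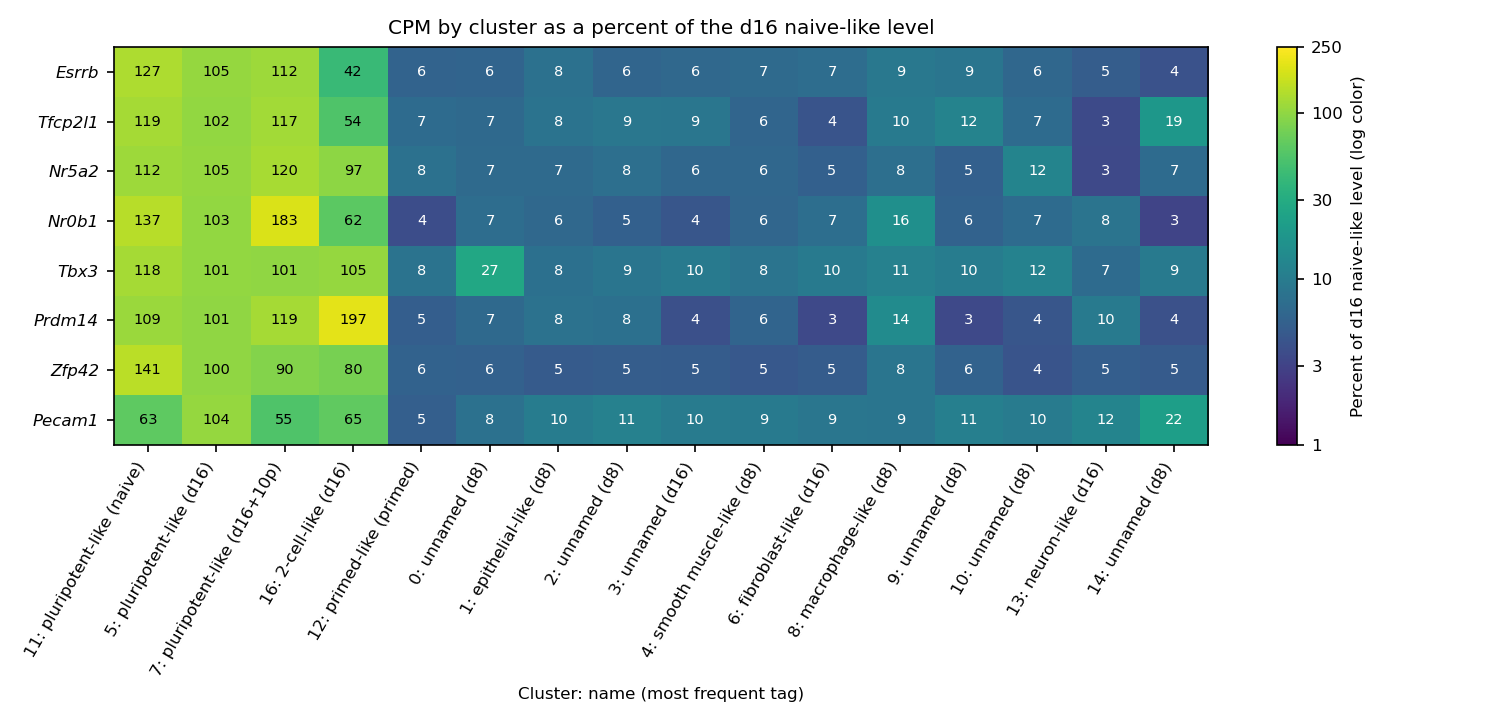
CPM of each gene in each cluster of at least 100 cells and in the 2-cell-like cluster, as a percent of the d16 naive-like level (color on a log scale, numbers rounded), with the cluster name and most frequent tag. The pluripotent-like clusters and the 2-cell-like cluster stand apart from all other clusters, where Tbx3 in cluster 0 (27.5%), Pecam1 (21.9%) and Tfcp2l1 (18.6%) in cluster 14 are highest.

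To ask whether the same cells carried several of the genes, each cell was thinned to 5000 reads, which left out 10 naive, 40 d16 and 17 d16+10p naive-like cells. Zfp42 was read in 91.4% (88.8 to 93.6) of naive, 76.3% (73.8 to 78.6) of d16 and 82.2% (79.5 to 84.6) of d16+10p naive-like cells. Esrrb was read in 45.5%, 36.8% (34.1 to 39.6) and 43.9%, Tfcp2l1 in 37.3%, 31.1% and 39.8%, and Nr5a2 in 19.6%, 17.7% and 25.9%. Tbx3 was read in 30.7%, 21.7% and 26.6%, Nr0b1 in 17.5%, 10.7% and 23.0%, Prdm14 in 10%, 6.95% and 9.57%, and Pecam1 in 17.3%, 25.9% and 16.5%. All genes but Pecam1 were thus read in a smaller share of d16 than of naive or d16+10p cells, and Pecam1 in a larger one. The d16 intervals overlapped with those of naive cells for Tfcp2l1, Nr5a2 and Prdm14, and with those of d16+10p cells for Tbx3 and Prdm14. In macrophage-like cells (829 at this depth, those at or above the limit included), Zfp42 was read in 11.8%, Esrrb in 4.34%, Pecam1 in 2.65% and Prdm14 in 0.844% of cells, and in the primed core in 10.9%, 3.21%, 1.23% and 0.494%, the median depth before thinning being 17394.5 and 22516 reads per cell.

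Before thinning the median depth was 23536 reads in naive, 14255 reads in d16 and 24034 reads in d16+10p naive-like cells, and Esrrb was read in 84.4%, 62.5% and 83.2% of cells. For Zfp42 the lower quartile over cells was 167 CPM and the upper quartile 719 CPM at d16, against 436 and 884 CPM in naive cells and 242 and 586 CPM at d16+10p. The unthinned quartiles move with the lower depth of d16 cells, and its part in them was not tested.

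Per cell, 2.70 ± 1.17 of the 8 genes (SD over 560 cells) had a read in naive cells, 2.27 ± 1.27 at d16 (1238 cells) and 2.67 ± 1.28 at d16+10p (909 cells), against 0.240 ± 0.466 in the primed core (405 cells). No read of any of the 8 genes was found in 2.32% of naive, 6.62% (5.30 to 8.16) of d16 and 2.97% of d16+10p naive-like cells, and in 77.5% of the primed core. The shares that independent reads of the 8 genes would give were 1%, 4.1% and 1.90% in the naive-like groups, and the variance of the number of genes per cell was 1.05, 1.24 and 1.15 times the independent one. At least 1 of Esrrb, Tfcp2l1 and Nr5a2 was read in 70% of naive, 62.4% of d16 and 74.3% of d16+10p cells, and all 3 in 3.57%, 2.18% and 4.40% of cells. The products of the shares of the 3 genes were 3.34%, 2.03% and 4.52%.

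**Figure D5:**
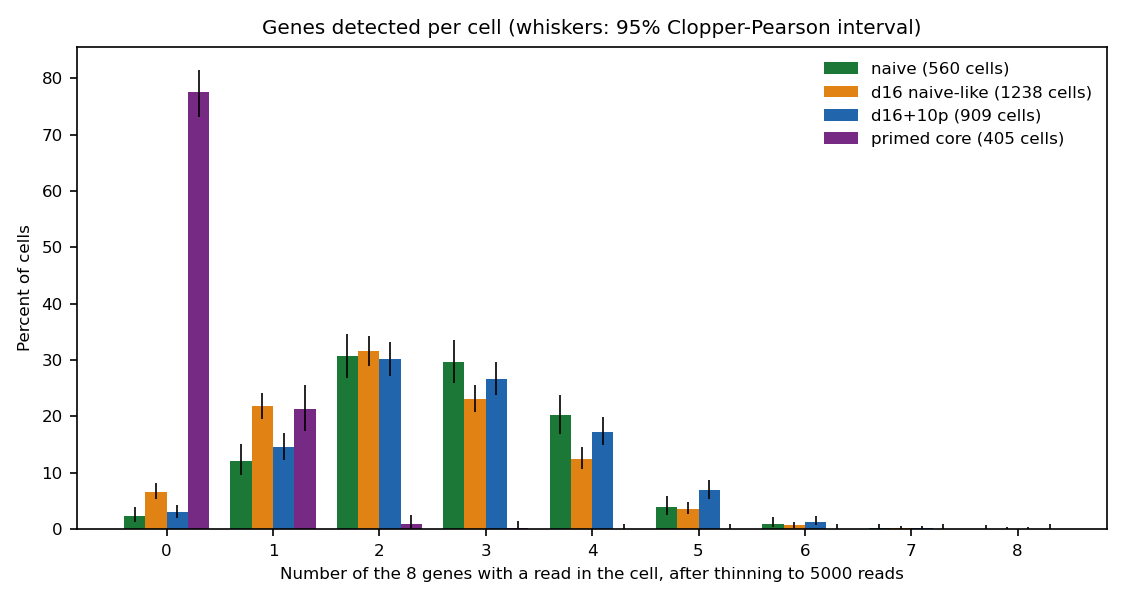
Percent of cells (vertical axis, starting at 0) by the number of the 8 genes with a read after thinning to 5000 reads (horizontal axis), in naive, d16 and d16+10p cells at or above the Dppa5a limit and in the primed core, with 95% Clopper-Pearson intervals as whiskers. Cells of the primed core mostly have no read (77.5%), and the d16 cells are shifted toward fewer genes than naive cells.

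For the 28 pairs of genes, the share of cells with both reads was set against the product of the 2 shares. The ratio of observed to product had a median of 1.00 in naive cells (0.67 to 1.19 over pairs), 1.08 at d16 (0.951 to 1.33) and 1.04 at d16+10p (0.907 to 1.45), and it was above 1 in 14, 21 and 18 pairs. The pair with the highest phi coefficient at d16 was Esrrb and Zfp42, at 0.107: Zfp42 was read in 82.2% (78.4 to 85.6) of cells with an Esrrb read and in 72.8% (69.5 to 75.9) of cells without. Tbx3 was read in 27.0% (22.6 to 31.7) of d16 cells with a Tfcp2l1 read and in 19.3% (16.7 to 22.2) of those without. Esrrb and Nr5a2, which share a half-site, had the lowest phi at d16 (-0.02), with Nr5a2 in 16.9% (13.6 to 20.7) and 18.2% (15.5 to 21.0) of cells with and without Esrrb. At 10000 reads per cell the same pair had the highest phi (0.103), with Nr5a2 in 34.1% and 24.6% of cells, so the order of the pairs is not stable. In sparse reads such weak values are a description only, and the pairs share cells.

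Levels of the other 7 genes were also compared between d16 naive-like cells with and without a read of Pecam1, the surface marker. In the 321 thinned d16 cells with a Pecam1 read Esrrb was at 115 CPM (98.7 to 133), and in the 917 cells without at 118 CPM (108 to 128). Tfcp2l1 was at 97.2 and 96.6 CPM, Nr5a2 at 49.2 and 50.6 CPM, Nr0b1 at 32.4 and 31.6 CPM, Tbx3 at 63.6 and 65.7 CPM, Prdm14 at 19.3 and 16.6 CPM and Zfp42 at 520 and 489 CPM, all with overlapping intervals. At d16+10p Esrrb was at 164 CPM (136 to 196) in 150 cells with a Pecam1 read and 123 CPM (112 to 134) in 759 without, and at 10000 reads per cell these intervals overlapped (150 CPM, 135 to 167, and 137 CPM, 128 to 146). Since a cell without a read can still express the gene, these groups are not positive and negative cells.

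The partners of the network were read alongside. Of 14 pluripotency partners, 11 were at least 2-fold higher in d16 naive-like cells than in the primed core (7.41% of all genes were), with a median of 2.15, and Pou5f1, Gbx2 and Sall4 were not. Dppa3, a naive and germline gene, differed by 3.99, Tcl1, a cofactor of Akt, by 3.55, Klf2 by 3.37, Tdh, threonine dehydrogenase, by 3.29, Fgf4 by 2.41, Klf5 by 2.34, Klf4 by 2.24, Nanog by 2.06, Tet2 by 1.77, the Esrrb coactivator Ncoa3 by 1.56 and Sox2 by 1.06. Against naive cells only Dppa3 (1.85 at d16, 2.16 at d16+10p) and Tdh (-1.30 at d16) of these 14 were past 2-fold. Of all genes, 2.3% were at least 2-fold higher and 1.07% lower at d16, and 0.836% and 0.53% at d16+10p. Between d16 and d16+10p Tdh was higher by 1.23, and the Klf4 and Gbx2 levels lower by -1.09 and -1.08. Here 0.609% of all genes were at least 2-fold higher and 0.98% lower. With TMM scaling 0 of the 14 were at least 2-fold lower.

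Of 12 upstream components and repressors, 2 were at least 2-fold higher in d16 naive-like cells than in the primed core (7.41% of all genes were). Of the 12, 0 were at least 2-fold lower (3.67% of all genes were), and the median was 0.43. Stat3, the effector of LIF, was higher by 1.17 and Tcf7l1, a repressor of several of the 8 genes, by 1.22, so the repressor was at 69.5 CPM in d16 naive-like cells and 29.2 CPM in the primed core. In the primed core against naive cells Lifr, the LIF receptor, was lower by -1.26, Stat3 by -1.31 and Tcf7l1 by -1.15. These 3 of the 12 were at least 2-fold lower, as were 5.97% of all genes. Socs3, the feedback inhibitor of LIF signalling, was at 35.1 CPM at d16 and 12.9 CPM at d16+10p, a difference of -1.38. At least 2-fold lower here were 0.98% of all genes. Against naive cells, also kept in 2iL, Socs3 was higher by 0.81 at d16 and lower by -0.57 at d16+10p. Medium, AICAR and passages differ together between d16 and d16+10p and cannot be told apart.

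Of 10 primed genes, 7 were at least 2-fold lower in d16 naive-like cells than in the primed core (3.67% of all genes were), led by Fgf8 (-3.40), T (-2.55), Pou3f1 (-2.47) and Dnmt3b (-2.25), with Cdh2 at -1.90, Fgf5 at -1.39 and Sox3 at -1.07. Dnmt3b, a de novo methyltransferase repressed by Prdm14, was at 30.8 CPM in naive cells, 36.1 CPM in d16 naive-like cells and 67.6 CPM at d16+10p, the last being 1.11 above naive cells. Sox3 was above naive cells at d16 by 1.41, at 5.58 CPM, below the 50 CPM minimum. Against naive cells, 1 of the 10 was at least 2-fold higher at d16 (2.3% of all genes were). At d16+10p it was also 1 of the 10 (0.836% of all genes were). None of 12 family relatives of the 8 genes was past 2-fold between d16 naive-like cells and the primed core in either direction. Of all genes, 7.41% were at least 2-fold higher and 3.67% lower, and 2 of the 12 relatives reached 50 CPM. The median of the relatives was 0.25. Prdm1, a relative of Prdm14 and a germline regulator, was at 8.81 CPM in d16 naive-like cells, 8.81 CPM at d16+10p and 3.53 CPM in naive cells, 1.12 above naive cells in both. It was the 1 relative of the 12 at least 2-fold higher in each, where 2.3% (d16) and 0.836% (d16+10p) of all genes were. Its levels lay below the 50 CPM minimum of these shares.

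The genes whose log2(CPM + 1) over the 15 clusters of at least 100 cells was most like each of the 8 were searched among 6855 genes. For Esrrb they were Dppa5a (Pearson's r = 0.990) and Zfp42 (0.989), for Tfcp2l1 Aqp3 (0.986) and Triml2 (0.979), for Nr5a2 Rex2 (0.981) and Zfp600 (0.981), and for Nr0b1 Mylpf (0.984) and Gm48244 (0.981). For Tbx3 they were Rps4l (0.980) and Septin1 (0.972), for Prdm14 Mylpf (0.988) and Nr0b1 (0.985), for Zfp42 Tuba3a (0.995) and Mylpf (0.994), and for Pecam1 Ppcdc (0.974) and Gm48417 (0.970). These correlations are a description over clusters of 1 library, which share its depth and tags.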

How the data were processed

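Cells were captured with BD Rhapsody, cDNA was amplified by TAS-Seq and 5 populations were tagged with oligonucleotide-bearing streptavidin through antibodies to CD9 and CD63. The values deposited by the authors are raw counts, integers that give the reads assigned to each gene symbol in each cell, with no collapsing by molecular identifier described. Per the labels and the study's methods, the authors trimmed reads with cutadapt (2.10 in the submitters' processing notes), mapped them with Bowtie2 (2.3.4.1) to GRCm38 cDNA and ncRNA, filtered barcodes on the knee plot, annotated cells by their strongest tag and removed those with the lowest fold between their top tags as doublets. No further doublet caller was run. Amplified reads are not independent molecules, so intervals and floors cover counting error only. Reads per cell ran from 3179 to 111822 (median 14171.5), and 0 cell barcodes were shared between tags. Reads are added per symbol, so near-identical copies can share reads.

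Counts were summed per group and scaled to counts per 1000000 (CPM). Log2 ratios used an added 1 CPM, intervals were exact (Poisson for sums, binomial for shares and ratios), and 2-fold was read against all genes that reached 50 CPM in one of the groups. Cells were thinned by drawing 5000 reads without replacement. Clusters (18) came from Seurat 5.3.0 (R 4.3.3) with 2000 variable genes without the 8 genes and Dppa5a, 56 exact principal components, 50 neighbours and resolution 0.8, and were named only where at least 3 markers and 50% of a marker list were 2-fold above other cells. edgeR 4.0.16 and DESeq2 1.42.0 gave scaling factors only, since 1 sample per group allows no test. The interval and thinning were tested on simulated data. Other steps used Python 3.11.15 with NumPy 2.4.6, SciPy 1.17.1 and pandas 2.3.3. The 8 genes and all gene lists were chosen with earlier results of these data known. Named genes were the 8, list genes past 2-fold, the 2 most similar genes for each of the 8, and Dppa5a. Alternatives varied the scaling, added CPM, Dppa5a limit, thinning depth, cell filter and reference cells. Promoters were not analysed here for Tbx3, Prdm14 and Pecam1.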

Additional observations from a re-analysis of the deposited data

How the results depend on the processing

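The median log2 ratio of the 8 genes in d16 naive-like cells over the primed core (3.78) was 2.41 with 10 CPM added and 3.20 against all primed-tagged cells, and in the primed core over naive cells (-3.69) it was -2.34 with 10 CPM added, -3.34 with all primed-tagged cells and -3.45 with all naive-tagged cells. For d16+10p over d16 (0.23) it was 0.36 with TMM and 0.35 with median-of-ratios scaling. Across all comparisons and alternatives, 303 of 384 ratios of single genes stayed within the counting interval of the reported value, 81 moved beyond it and 0 with an interval excluding 0 changed sign. For d16+10p over naive cells all 72 stayed within it. Ratios without added CPM are part of these counts and could not move, because the intervals were computed without it. Where a reported value lay outside its interval, the interval was widened to include that value. Among alternatives chosen after seeing the data, levels over cells below the Dppa5a limit moved the median percentage at d8 from 6.84% to 6.40%, and ratios without any added CPM gave medians of 4.09 and -4.21 for the comparisons with the primed core. The share of d16 naive-like cells with an Esrrb read (36.8%) was 55.99% at 10000 reads per cell and 62.5% without thinning, and the number of the 8 genes read per cell (2.27) was 3.36 at 10000 reads, 2.19 with a Dppa5a limit of 500 and 2.38 with a limit of 2000. The percentage of genes past 2-fold without a minimum level was 1.96% in place of 3.67% (lower, d16 over primed core), 0.338% in place of 0.609% (higher, d16+10p over d16) and 2.8% in place of 4.49% (higher, primed core over naive). Depth limits Prdm14 and Nr0b1 most, with 9 and 12 reads in the primed core. No paired analysis was possible because each population was 1 sample.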

Other observations

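Some cells with the primed and d8 tags lay at or above the Dppa5a limit. The 62 primed-tagged cells at or above the Dppa5a limit had Esrrb at 114 CPM (93.6 to 138), Tfcp2l1 at 78.2 CPM, Nr5a2 at 31.7 CPM, Nr0b1 at 24.3 CPM, Tbx3 at 58.1 CPM, Prdm14 at 8.45 CPM, Zfp42 at 319 CPM (284 to 357) and Pecam1 at 63.4 CPM (48.4 to 81.6), and 50 of them fell in the cluster that holds 1131 of the d16 naive-like cells. The 72 d8-tagged cells had Esrrb at 57.8 CPM (46.9 to 70.4), Zfp42 at 244 CPM (221 to 269) and Pecam1 at 33.0 CPM, with 22 in that cluster and 20 in the d8 cluster led by Lox. The primed tag held 1826 cells and the d8 tag 9627 cells, where 500 and 9000 were collected. Whether the cells at or above the limit carry a wrong tag was not tested.

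Below the limit, the 231 naive-tagged cells had the 8 genes at 7.59% to 23.3% of the d16 naive-like level (median 14.9%) and the 225 d16+10p-tagged cells at 17.6% to 39.4% (median 27.7%), above the d8 and d16 cells below the limit. In these cells Dppa5a was at 6.21% and 7.55%, values in part built in because the limit was set on Dppa5a.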
